A study of Homo sapiens with 6 samples.

Results

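The AlkB family of human dioxygenases comprises FTO and ALKBH1 to ALKBH8, and these 9 genes were read by symbol among 45019 rows of each deposited file. All 9 symbols were present, 8 passed the filter on low values, and ALKBH6 was listed at 0 in every library. RNA came from MDA-MB-468, a triple-negative breast cancer cell line of basal type. Untreated cells were compared with cells kept for 10 days in 100 µM DETA/NO, a nitric oxide donor with a long half-life, in the same serum-supplemented medium. Treated cells were replated every 48 h and were given the donor again once attached, and dishes of a replicate were mixed at each replating. The design text speaks of a second line, which was not analysed here. Of 3 treated samples, replicates 1 and 2 carry the same values throughout and enter as a single library (below, the shared DETA/NO library), which leaves n = 3 untreated and n = 2 DETA/NO libraries. No label states that replicates were separate cultures, so the p-values below refer to the spread among these libraries, which may be technical.

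AlkB enzymes use iron, oxygen and 2-oxoglutarate to oxidise their substrates. In demethylation, the oxidised methyl group of a nucleic acid or protein then leaves as formaldehyde. FTO and ALKBH5 remove the methyl group of N6-methyladenosine (m6A) from RNA, and FTO also acts on the related cap mark m6Am. The other members repair alkylated bases, edit tRNA methylation or act on proteins. The series set out from the submitters' observation that nitric oxide inhibits FTO and raises m6A in mRNA. The comparison below asks whether the transcript levels of the enzyme family differed after chronic exposure. It measures RNA only, neither enzyme activity nor m6A.

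Start regions are shown first, because 3 members share theirs with another protein-coding gene transcribed the other way and because ALKBH5 is a known hypoxia-inducible gene. In GENCODE 29 (GRCh38), the closest starts of FTO and RPGRIP1L lie 25 bases apart, those of ALKBH1 and SLIRP 51, and those of ALKBH4 and LRWD1 53. Of 13037 tested coding genes with a position, 18.8% had such a coding partner within 1000 bases. The stretches below come from RefSeq's windows (GRCh38.p14) of 250 bases before each start, read 5′ to 3′ on the member's strand, and lie outside every GENCODE 29 exon. Capitals mark matches, on either strand, to the core of the element bound by the transcription factor ZNF143.
FTO, gap to RPGRIP1L (chr16:53703939-53703962, plus strand): cctgtttgctcgcggggtagcgga
ALKBH1, gap to SLIRP (chr14:77708024-77708070, minus strand): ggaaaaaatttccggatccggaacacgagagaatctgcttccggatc
ALKBH4, gap to LRWD1 (chr7:102464877-102464928, minus strand): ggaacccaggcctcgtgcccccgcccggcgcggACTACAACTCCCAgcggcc

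The same element occurred in 2 places of the FTO window and in 1 place of the ALKBH8 window, on the other strand, and in that of ALKBH4 as shown, and was absent from the windows of the other 6 members. Among all 34943 windows of this length, 1.27% held it. This element was searched for after the windows had been read, a match is only a description, and these short sites touch annotated exons.
FTO, upstream site (chr16:53703906-53703930): ctccTGGGAAATGTAGTtctccttg
FTO, second site (chr16:53704037-53704065): gtgcatccTGGGAGTTGTAGTtttttcta
ALKBH8, site (chr11:107565736-107565758): cgggctcaTGGGAAATGTAGTgc

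The ALKBH5 window lay within the GENCODE 29 gene but outside its exons. In its sequence, capitals mark ACGTG or GCGTG on either strand, the core letters read by hypoxia-inducible factors.
ALKBH5 (chr17:18183578-18183827, plus strand): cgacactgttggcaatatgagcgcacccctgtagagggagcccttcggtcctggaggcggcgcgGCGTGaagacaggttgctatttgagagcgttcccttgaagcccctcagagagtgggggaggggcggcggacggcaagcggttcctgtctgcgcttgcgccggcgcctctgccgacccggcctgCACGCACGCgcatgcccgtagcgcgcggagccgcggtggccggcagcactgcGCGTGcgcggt

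That window held 4 such matches, of which 2 overlap. Windows of ALKBH2, ALKBH3, ALKBH4 and ALKBH6 held 1 match each, and 43.2% of all windows held at least 1. GC content of the members' windows ran from 48.8% in ALKBH8 to 76.0% in ALKBH4. No member's window held TATAAA on either strand, against 10.8% of all windows.

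The libraries held 28897422 to 34637343 recovered reads. Recovered reads per member and library were 2558 to 3500 for FTO and 156 to 210 for ALKBH7, the lowest tested member, where counting error alone is about 7.13%. Epithelial markers fitted the label, with EPCAM at 12806 to 13708 normalized reads and EGFR, amplified in this line, at 217563 to 247990. RB1, which the line is known to lack, lay at 67.4 to 111.8. Among markers of other cell types, CD3E and PDGFRB stayed under the filter, CD68 was listed at 0 with 100% of its span covered by other genes, so that its 0 says nothing of the cells, and PECAM1 and VWF lay between 18.6 and 86.0. PTPRC, at 8.83 to 16.6 untreated and 33.2 and 34.3 under DETA/NO, and COL1A1, at 566.7 to 629.4 and 835.6 and 842.1, rose. The part of such markers in the members' values was not tested. In bulk RNA, a change in the share of cells and in RNA per cell cannot be told apart.

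DETA/NO went with a lower level of FTO and with higher levels of ALKBH5, ALKBH1, ALKBH2 and ALKBH8, by estimates of 11.9% to 18.2% for those that rose. ALKBH3, ALKBH4 and ALKBH7 did not pass the test. So 5 of 8 tested members, 62.5%, passed limma with a Benjamini-Hochberg adjusted p under 0.05, where 43.4% of 16409 tested genes were called. By direction, 4 members rose and 1 fell, against 21.7% of all tested genes in each direction. Both DETA/NO libraries lay outside the untreated range in 6 members, against 61.2% of tested genes (30.4% higher, 30.8% lower). With 8 genes, shares of this size say nothing particular about the family. In edgeR, 4 members rose and 1 fell, where it called 43.3% of tested genes (22.1% higher, 21.2% lower). DESeq2 called 2 members higher and 1 lower, against 33.2% of its tested genes (17.3% higher, 15.9% lower). In limma without its trend and robust options, 1 rose and 1 fell, against 29.0% (13.8% higher, 15.2% lower). Without the shared DETA/NO library, 2 members rose and 1 fell, against 34.1% of the genes then tested (17.0% higher, 17.1% lower). The member that fell was FTO in each of these.

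**Figure D1:**
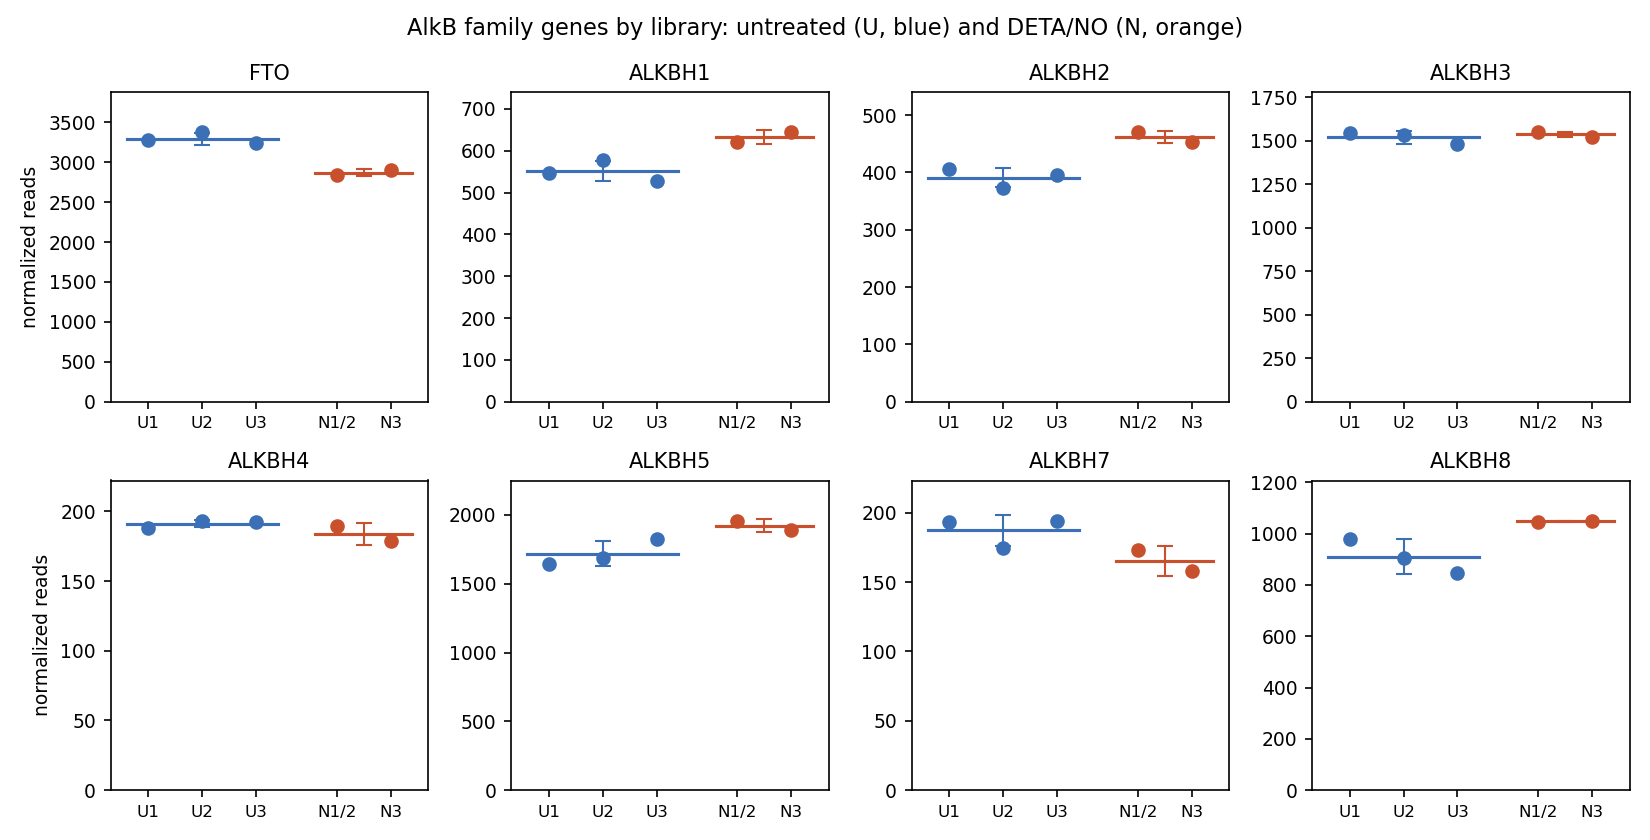
Normalized reads (vertical axes, from 0) of the 8 tested members in each library, with untreated libraries U1 to U3 in blue and DETA/NO libraries (N1/2, the shared one, and N3) in orange; horizontal lines are group means and bars 1 SD. FTO drops from 3235 to 3374 down to 2834 and 2899, while ALKBH1, ALKBH2, ALKBH5 and ALKBH8 lie higher in both DETA/NO libraries.

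FTO, the m6A and m6Am demethylase, spans chromosome 16 from 53701692 to 54158512 on the plus strand. It had 3272, 3374 and 3235 normalized reads in untreated libraries 1 to 3, against 2834 in the shared DETA/NO library and 2899 in library 3. Both treated values lay below every untreated value, and the gap between groups was wider than the spread within either. The group levels were 3294 ± 71.9 (SD, n = 3) and 2867 ± 45.7 (SD, n = 2). On the log2(value + 1) scale the difference was -0.20 ± 0.037 (SE), with a limma adjusted p of 4.37e-05, which is a change of -12.9% with a 95% interval of -17.4% to -8.28%. FTO passed under all 18 alternative settings, with log2 fold changes from -0.22 to -0.18. Among all tested genes, 46.1% changed by more in either direction, so the fall was precisely measured but of middling size.

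ALKBH5, the other m6A demethylase of mRNA, spans chromosome 17 from 18183078 to 18209954. It had 1646, 1686 and 1823 normalized reads untreated, then 1957 and 1888 under DETA/NO. The groups did not overlap, but untreated library 3 came close to the lower treated library. ALKBH5 rose by 11.9% (95% interval 4.82% to 19.5%), a log2 fold change of 0.16 ± 0.047 (SE, limma adjusted p = 0.00489). It lost the call without the shared DETA/NO library (limma adjusted p = 0.0649) and in limma without trend and robust options (adjusted p = 0.114).

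The ratio of the m6A demethylases moved accordingly. FTO stood at 1.99, 2.00 and 1.77 times ALKBH5 in the untreated libraries, and at 1.45 and 1.54 times under DETA/NO. These are ratios of reads per gene, not of molecules, since the genes differ in length. FTO made up 37.2% to 38.3% of the members' summed reads in untreated libraries and 32.1% and 33.0% in treated ones. The sum over all members barely differed, at 8690 to 8813 untreated and 8836 and 8793 treated, because the other members together went from between 5440 and 5505 to 6001 and 5894.

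The members that act on tRNA came next. ALKBH8, which joins an AlkB domain to a methyltransferase that completes the wobble uridine of several tRNAs, spans chromosome 11 from 107502726 to 107565746. Its values were 979.6, 903.5 and 844.7 untreated and 1045 and 1049 under DETA/NO, so the treated libraries nearly coincided while the untreated ones ranged over more than 100 reads. The log2 fold change was 0.21 ± 0.059 (SE, limma adjusted p = 0.0052), a rise of 15.4% with a 95% interval of 6.07% to 25.4%. ALKBH8 stayed called in 17 of 18 alternatives, the exception being limma without trend and robust options (adjusted p = 0.105).

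ALKBH1, which removes methyl groups from tRNA and is found in mitochondria as well as the nucleus, spans chromosome 14 from 77672404 to 77708020. It had 547.6, 576.8 and 528.6 normalized reads untreated and 620.5 and 643.8 under DETA/NO, with no overlap. It rose by 0.20 ± 0.068 on the log2 scale (SE, limma adjusted p = 0.0185), or 14.8%, with a 95% interval of 0.06 to 0.34 on the log2 scale. The call was lost without untreated library 3 (limma adjusted p = 0.0515) or DETA/NO library 3 (0.124), in DESeq2 (0.0765), and in limma without trend and robust options (0.0573).

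Of the DNA repair members, ALKBH2 rose and ALKBH3 did not pass. ALKBH2, which restores alkylated bases in double-stranded DNA, spans chromosome 12 from 109088188 to 109093631. It had 405.2, 372.8 and 394.6 normalized reads untreated and 469.8 and 453.9 under DETA/NO, and the groups did not overlap. Its log2 fold change of 0.24 ± 0.078 (SE, limma adjusted p = 0.0126) was the highest among the members and equals a rise of 18.2%, with a 95% interval of 5.83% to 31.9%. Without untreated library 2 the limma adjusted p was 0.0615, without the shared DETA/NO library 0.0938, in DESeq2 0.0631, and with a replicate block that took the shared library as number 1 it was 0.0584.

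ALKBH3, which prefers single-stranded DNA and RNA, spans chromosome 11 from 43880811 to 43920266. Its values of 1545, 1532 and 1478 untreated and 1547 and 1523 under DETA/NO overlapped. The log2 fold change was 0.02 ± 0.046 (SE, limma adjusted p = 0.816), and the 95% interval of the change ran from -5.24% to 7.87%. That interval lies below the estimates of ALKBH1, ALKBH2, ALKBH5 and ALKBH8, although differences between members were not tested. An antisense gene, ALKBH3-AS1, overlaps its 3′ part. It had a mean of 27.0 untreated and 22.3 under DETA/NO (limma adjusted p = 0.463), and whether counting used strand was not given in the sources used here.

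The remaining tested members had few reads per gene and were imprecisely measured. ALKBH4, which acts on a methylated lysine of actin, spans chromosome 7 from 102456238 to 102464876. It had 188.3, 193.3 and 192.2 normalized reads untreated and 189.5 and 178.5 under DETA/NO, with overlap (log2 fold change -0.06 ± 0.109, SE, limma adjusted p = 0.714). ALKBH7, a mitochondrial member linked to programmed necrosis, spans chromosome 19 from 6372433 to 6375251. It had 193.1, 174.6 and 194.1 untreated and 172.9 and 157.6 under DETA/NO, so that both treated libraries lay just below the lowest untreated one. Its log2 fold change of -0.18 ± 0.114 (SE) was close in size to that of FTO but did not pass (limma adjusted p = 0.212). At this depth the 95% interval ran from -24.8% to 3.69% for ALKBH7 and from -17.5% to 12.1% for ALKBH4. Both intervals include 0, so neither a loss nor a gain could be told from no change.

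ALKBH6, whose substrate is less well known, spans chromosome 19 from 36009120 to 36014239 and was listed at 0 in all libraries. Other genes cover 99.9% of its span. Among 118 genes of all lists used here with a position, 12 were listed at 0 throughout, and 11 of these had at least 90% of their span covered by other genes, against 1 of the 106 others. The exception among the zeros was SDHA, a succinate dehydrogenase subunit that respiring cells use, with 0% covered. SDHA was singled out after its values were seen. The 0 of ALKBH6 is therefore given only as listed.

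**Figure D2:**
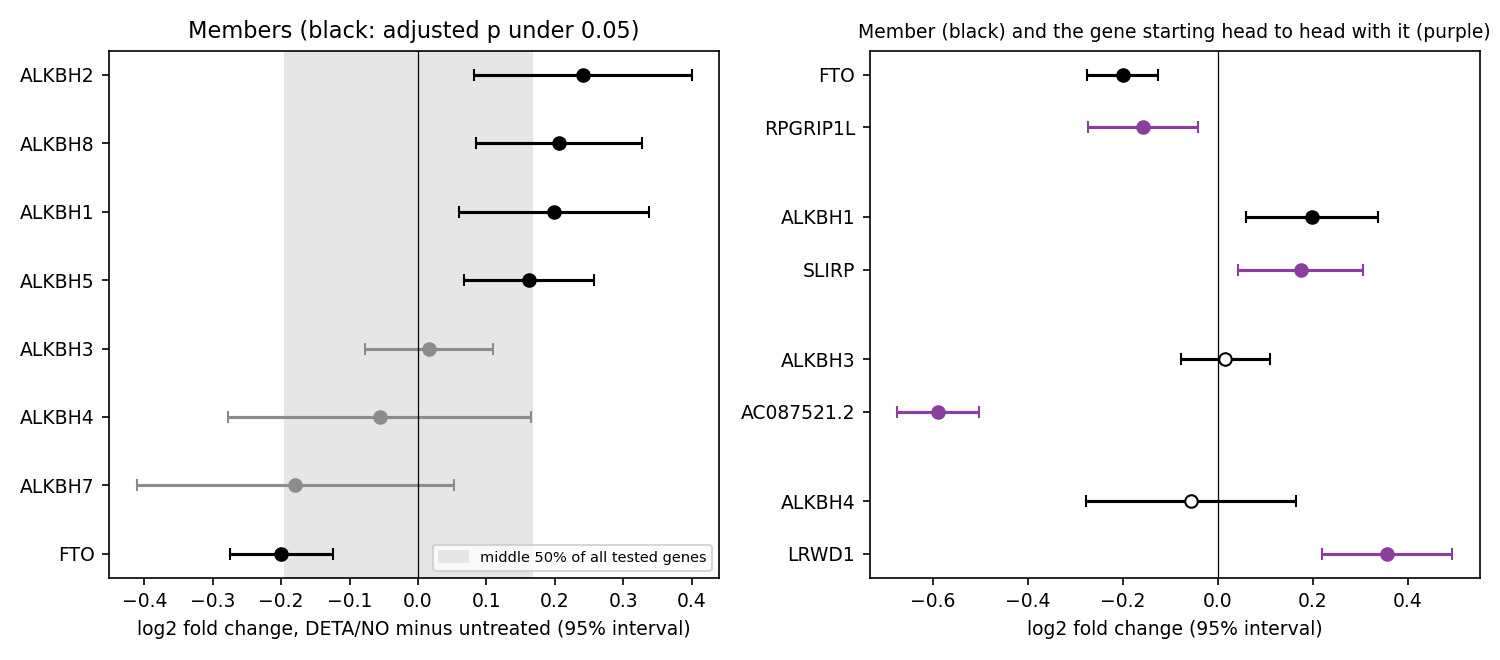
Log2 fold changes (horizontal axes, DETA/NO minus untreated, limma on log2(value + 1)) with 95% intervals; the left panel shows the 8 tested members, called ones in black, over a grey band holding the middle 50% of all tested genes, and the right panel pairs 4 members (black) with the gene that starts head to head with them (purple; filled symbols passed an adjusted p of 0.05). RPGRIP1L lies below 0 like FTO and SLIRP above 0 like ALKBH1, each passing with all libraries, whereas LRWD1 and AC087521.2 passed without their member.

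Levels can be compared between genes only per length. No gene lengths of the authors' own were used here, so reads were divided by the summed GENCODE 29 exon length. Reads from introns, if counted, would raise long genes such as FTO. The listed genes WTAP, RIOX1, TYW5 and IRX6 were at 0 with 100% of their span covered. Exons of other genes overlapped only 6.81%, 3.46%, 3.28% and 0% of their exon bases. Other covered genes at 0 had more, up to 85.8% in CD68. Whether reads were counted over whole gene spans was not tested, so the levels below may include intron reads. Per kilobase of exon in untreated libraries, ALKBH3 (623 to 652 normalized reads) stood above ALKBH5 (516 to 572), and their ranges did not overlap. ALKBH8 (187 to 217) and ALKBH1 (186 to 203) overlapped, and ALKBH2 lay at 163 to 177, FTO at 151 to 158, ALKBH7 at 120 to 133 and ALKBH4 at 81.4 to 83.6. Under DETA/NO, ALKBH3 (642 to 652) and ALKBH5 (592 to 613) still led, and FTO (133 to 136) stayed below ALKBH2 (198 to 205). The order below ALKBH3 and ALKBH5 depends on the annotation. With only the basic transcript set, ALKBH2 moved from an untreated mean of 171 to 327 per kilobase and FTO, whose exons then sum to 14598 instead of 21379 bases, from 154 to 226, both above ALKBH1 at 212 and ALKBH8 at 202. ALKBH3 moved from 640 to 1030 and stayed highest, ahead of ALKBH5 at 585. Among tested genes with a length, ALKBH3 and ALKBH5 stood above 86.0% and 83.0% in untreated level per kilobase, and FTO above 54.0%.

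Genes that start head to head with a member were found by position and described after the files had been seen. RPGRIP1L, a ciliary transition zone gene, had 1245, 1258 and 1095 normalized reads untreated and 1062 and 1086 under DETA/NO. It fell with FTO (log2 fold change -0.16 ± 0.057, SE, limma adjusted p = 0.0259), but the call was lost on leaving out any library except untreated library 3, at limma adjusted p of 0.0521 to 0.146. It was also lost under both replicate blocks (limma adjusted p = 0.106 and 0.0967), in DESeq2 (0.0967) and in limma without trend and robust options (0.195). SLIRP, a mitochondrial RNA-binding protein gene, had 648.9, 616.1 and 618.3 untreated and 730.2 and 687.5 under DETA/NO. It rose with ALKBH1 (log2 fold change 0.17 ± 0.065, SE, limma adjusted p = 0.0281), and lost the call without untreated library 2 (0.0868) or the shared DETA/NO library (0.232), in DESeq2 (0.106), in limma without trend and robust options (0.0647) and under the replicate block with the shared library as number 1 (0.0792). Other genes cover 82.0% of SLIRP's span, and reads there are uncertain.

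In the other pairs the member did not pass or was not tested. LRWD1, which codes for a partner of the origin recognition complex, had 555.3, 571.9 and 625.7 normalized reads untreated and 765.7 and 729.3 under DETA/NO, and rose by 0.36 ± 0.067 on the log2 scale (SE, limma adjusted p = 6.09e-05), while the interval of ALKBH4 included 0. AC087521.2, a long antisense RNA whose start lies 85 bases from that of ALKBH3, had 2367, 2332 and 2274 untreated and 1566 and 1524 under DETA/NO. Its log2 fold change of -0.59 ± 0.042 (SE, limma adjusted p = 3.89e-13) exceeded any change among the members, although 52.7% of the gene's span is covered by others. ALKBH6 faces another antisense gene, AC002116.2, which had 180.7 ± 1.27 untreated and 167.9 ± 15.0 treated (limma adjusted p = 0.475).

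FTO lies in a region of long-range contacts, in which its introns are known to hold enhancers of the homeobox genes IRX3 and IRX5. Of 7 neighbours listed, 6 were tested, 4 fell and 0 rose, with a median log2 fold change of -0.17, where 21.7% of all tested genes fell, 21.7% rose and their median was -0.00016. In limma without trend and robust options, 1 neighbour fell. CHD9, a chromatin remodeller, had 5348, 5499 and 5108 normalized reads untreated and 4397 and 4667 under DETA/NO (log2 fold change -0.23 ± 0.036, SE, limma adjusted p = 4.63e-06). IRX3 had 2463, 2403 and 2679 untreated and 2094 and 2164 under DETA/NO (log2 fold change -0.24 ± 0.044, limma adjusted p = 4.45e-05). RBL2, a pocket protein gene, and RPGRIP1L were the other neighbours that fell. AKTIP, which lies between RBL2 and FTO, and IRX5 had log2 fold changes of 0.09 and 0.08 and did not pass (limma adjusted p = 0.0924 and 0.115). A cause common to the region was not tested. Without untreated library 3, 1 neighbour rose. IRX6 was listed at 0, with its whole span covered by another gene.

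**Figure D3:**
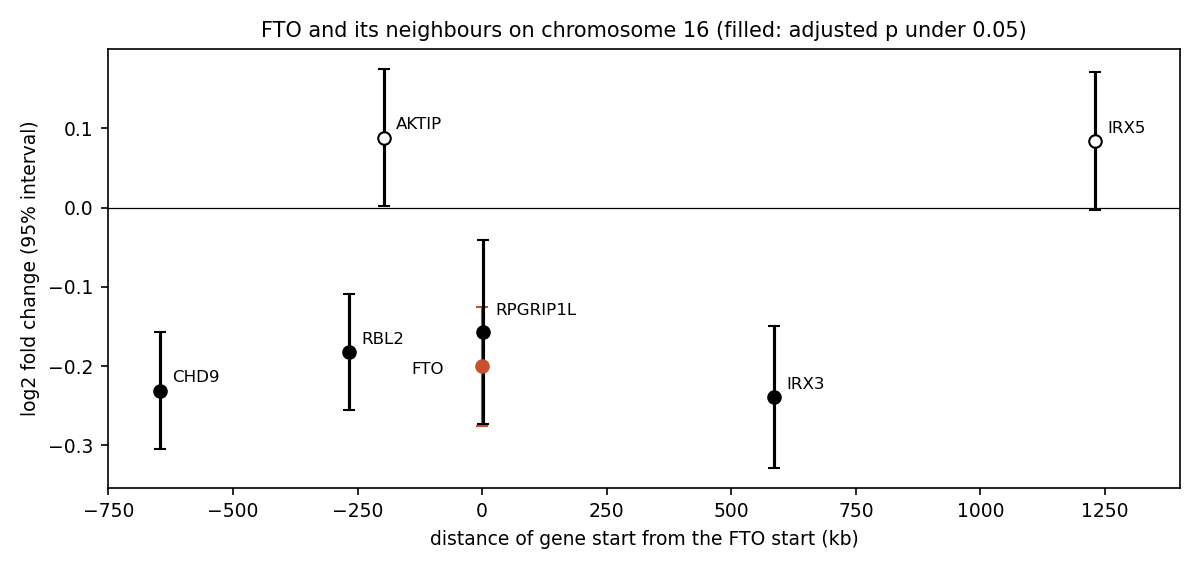
Log2 fold change with 95% interval (vertical axis, DETA/NO minus untreated) of FTO (orange) and its 6 tested neighbours against the distance of their starts from the FTO start in kilobases; filled symbols passed an adjusted p of 0.05. CHD9, RBL2, RPGRIP1L, FTO and IRX3 lie below 0, and AKTIP and IRX5 above it without passing.

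Of 13 listed writers of m6A and m6Am, 12 were tested, 3 rose, 2 fell and the others did not pass (median log2 fold change -0.01). Over all tested genes 21.7% rose and 21.7% fell, the shares beside which this count and those of the lists that follow stand. CBLL1 and VIRMA, subunits of the m6A writer complex, rose by 0.14 each, and PCIF1, which writes m6Am on capped mRNA, had a log2 fold change of -0.22 ± 0.065 (SE, limma adjusted p = 0.00557). METTL14, the partner of the catalytic subunit METTL3, had one of -0.13 (limma adjusted p = 0.039). METTL14 lost the call in DESeq2 (adjusted p = 0.137), in limma without trend and robust options (0.111), with no filter (0.0589) and under the replicate block with the shared library as number 1 (0.107). Without the shared DETA/NO library 1 writer rose and 1 fell, and 1 fell without DETA/NO library 3 or untreated library 2 or 3, with METTL14 at limma adjusted p of 0.302, 0.121 and 0.0622. Without the shared library, CBLL1 had a limma adjusted p of 0.189 and PCIF1 one of 0.09, and without DETA/NO library 3 VIRMA had 0.143. In limma without trend and robust options CBLL1 and VIRMA had adjusted p of 0.0954 and 0.12.

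Among 6 partners and regulators, EPAS1 and ZNF217 rose and SFPQ fell. EPAS1, the hypoxia-inducible factor subunit HIF-2 alpha, had 7493, 7450 and 7152 normalized reads untreated and 8043 and 8347 under DETA/NO (log2 fold change 0.15, limma adjusted p = 0.000207). ZNF217, which binds the m6A writer METTL3, rose by 0.17, and SFPQ, an RNA-binding protein reported beside FTO, had a log2 fold change of -0.14. HIF1A lay at 64.0 to 79.5 normalized reads, with 62.6% of its span covered by other genes, and did not pass. The list's median was 0.03. In limma without trend and robust options all these calls were lost, with EPAS1, ZNF217 and SFPQ at adjusted p of 0.0638, 0.0543 and 0.0531.

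Transcripts reported in other systems as substrates of FTO or ALKBH5 rose in 5 of 8 tested genes and fell in 0, where 21.7% of all tested genes rose and 21.7% fell, with a median log2 fold change of 0.17. These 11 genes were listed with earlier results of these data known. PFKP, the platelet-type phosphofructokinase, had 1792, 1834 and 1826 normalized reads untreated and 2922 and 2901 under DETA/NO, a rise of 0.68 ± 0.040 on the log2 scale (SE, limma adjusted p = 3.77e-15). AXL, a receptor tyrosine kinase, rose from 22.0, 22.6 and 31.4 to 88.6 and 65.5 (log2 fold change 1.57 ± 0.232). BNIP3, FOXM1 and TACC3 were the others, while MYC and RARA, at -0.09 and -0.12, overlapped between groups. Without DETA/NO library 3, 1 substrate fell, as under the replicate block with the shared library as number 1, and 2 fell with it as number 2. ASB2 and NANOG lay under the filter, and LDHB was listed at 0 with 96.3% of its span covered.

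For the members that act on tRNA and alkylated bases, the opposing and accompanying enzymes were listed as well. Of 8 tRNA m1A and m3C methyltransferases, 3 rose and 0 fell (median 0.09). TRMT6 and TRMT61A, the subunits of the tRNA m1A methyltransferase, rose by 0.23 and 0.48 on the log2 scale, TRMT61A from 241.8, 244.3 and 255.1 to 334.6 and 355.1 normalized reads (limma adjusted p = 7.01e-05). Of 10 tested genes of wobble uridine modification, the pathway of ALKBH8, 0 rose and 1 fell, the elongator subunit ELP6 (-0.26, limma adjusted p = 0.00101; median of the list 0.04). Of 10 alkylation repair genes, 3 rose, such as ASCC2 (0.16), a partner of ALKBH3, and USP7 (0.14), and 2 fell, PCNA by -0.22 (limma adjusted p = 1.48e-07) and ASCC1 by -0.10, with a list median of 0.03. ASCC1 lost the call on leaving out any library except untreated library 3, at limma adjusted p of 0.0589 to 0.202. Then 1 repair gene fell without untreated library 1 or 2 or the shared library. The call of ASCC1 was also lost in DESeq2 (adjusted p = 0.134), with no filter (limma adjusted p = 0.0654) and under both replicate blocks (0.203 and 0.0552). In limma without trend and robust options 0 repair genes rose and 1 fell, with ASCC2, USP7 and ASCC1 at adjusted p of 0.0568, 0.099 and 0.161.

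Genes of related oxygenases and of the metabolism of 2-oxoglutarate, which AlkB enzymes consume, were listed too, and no metabolite was measured. Of 8 other 2-oxoglutarate oxygenases that act on RNA or the translation machinery, 5 were listed at 0 and all 3 tested ones rose: RIOX2, a ribosomal histidine hydroxylase, by 0.30 ± 0.049 (SE, limma adjusted p = 7.41e-06), JMJD6 by 0.23 and OGFOD1 by 0.37. Of 17 tested genes that make or use 2-oxoglutarate, succinate or fumarate, 7 rose and 5 fell (median 0.02). IDH1, the cytosolic enzyme that makes 2-oxoglutarate from isocitrate, had 8803, 8968 and 8488 normalized reads untreated and 5904 and 6016 under DETA/NO. That log2 fold change of -0.55 ± 0.032 (SE, limma adjusted p = 2.28e-15) was the lowest of the list, and IDH2, its mitochondrial counterpart, had one of -0.22. The transaminases GPT2 and GOT2 rose by 0.41 and 0.24.

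**Figure D4:**
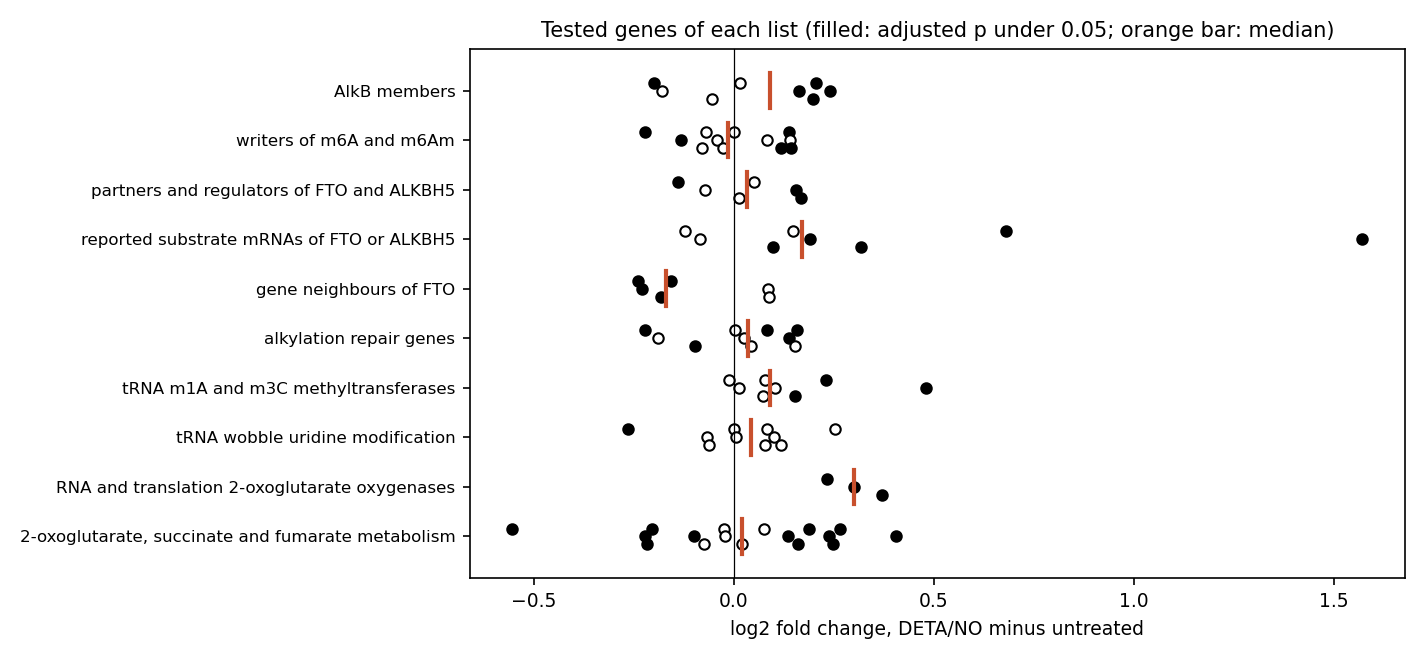
Log2 fold change (horizontal axis, DETA/NO minus untreated) of each tested gene in the AlkB family and in 9 lists around it, filled where the adjusted p was under 0.05, with list medians as orange bars. The members lie between -0.20 and 0.24, whereas AXL reaches 1.57 and IDH1 -0.55.

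Profiles most like those of FTO and ALKBH5 were sought among 8338 genes with a mean of at least 500, as the root mean square difference of log2(value + 1) minus the untreated mean over 5 libraries. Nearest to FTO were PTAR1, SLC30A7, LRBA, HPF1 and ANP32E, at differences of 0.00998 to 0.0114, with log2 fold changes from -0.20 to -0.19. Nearest to ALKBH5 were DUS1L, CSF2RA, AGRN, NDUFA8 and ACSF2, at 0.0104 to 0.017, with log2 fold changes of 0.16 to 0.17. Both sets share their libraries and scaling with the member, and with 5 libraries many genes can lie this close. None of them is an AlkB gene.

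**Figure D5:**
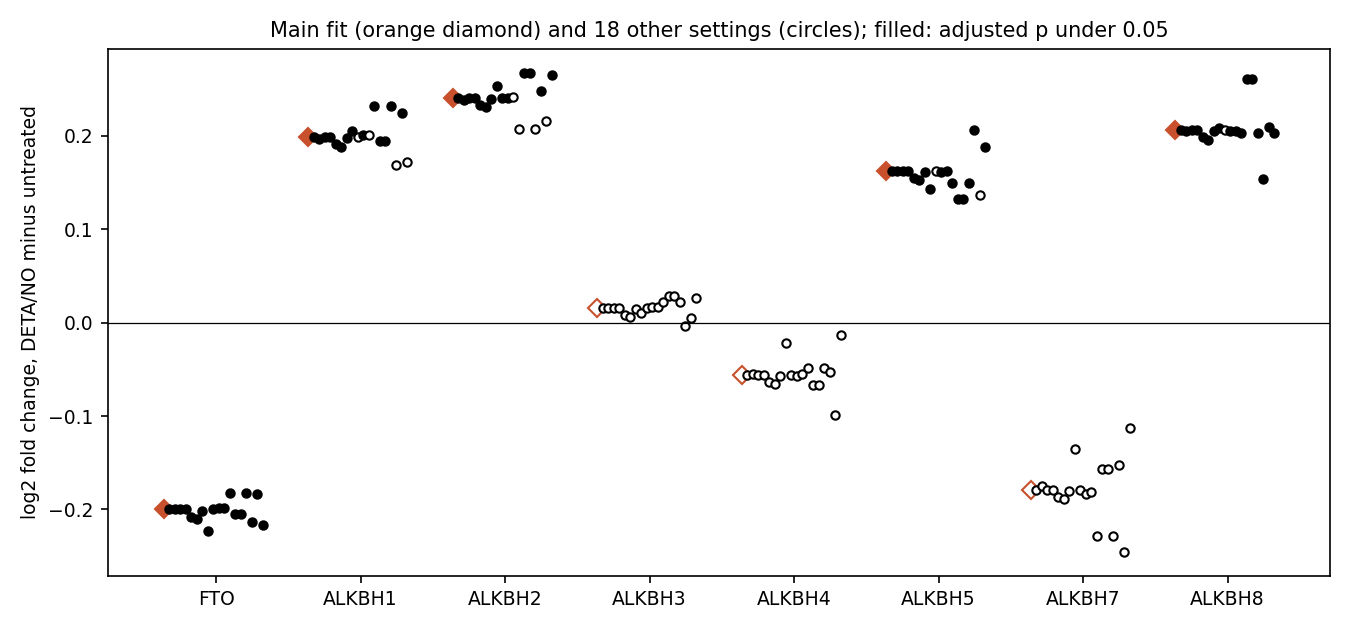
Log2 fold change (vertical axis, DETA/NO minus untreated) of each tested member under the main settings (orange diamond) and 18 alternatives (circles), filled where the adjusted p was under 0.05. FTO is filled throughout, ALKBH8 in 17, ALKBH5 in 16, ALKBH1 and ALKBH2 in 14 of 18, and ALKBH3, ALKBH4 and ALKBH7 in none.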

How the data were processed

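Total RNA was sequenced in 3 untreated and 3 DETA/NO samples, grouped by their titles. The authors deposited 1 normalized read count (signal) per gene and library. Per the submitters' processing notes, which give no order, GRCh38 was the build, and the tools were TopHat2 2.1.1, Bowtie2 2.5.0.0, Subread, featureCounts 2.0.3, R 4.2.2, DESeq2 1.38.3, deepTools 3.5.1, MultiQC 1.14 and FastQC 0.11.9. How features were annotated and counted, and with what strand setting, was not given in the sources used here. Values above 0 were whole reads times 1 factor per library in 100% of cases (tolerance 0.01).

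A gene was tested if its mean was at least 10, with limma 3.58.1 (R 4.3.3; trend, robust eBayes) on log2(value + 1), which understates the change of low genes. Alternatives were edgeR 4.0.16 and DESeq2 1.42.0 on recovered reads, another scaling, pseudocount or filter, a block for replicate number, and fits without each library. The named genes were all members, the 2 called genes of each list with the smallest adjusted p in each direction, and the nearest profiles; others were named after their values were seen. Members and lists were chosen with earlier results of these data known. Of the row names, 91.2% matched a single GENCODE 29 gene, and all 9 members matched RefSeq windows. Python 3.11.15 and pandas 2.3.3 were used.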

Additional observations from a re-analysis of the deposited data

How the results depend on the processing

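Across 18 alternatives, FTO, ALKBH4 and ALKBH7 kept their direction and their side of the threshold. The calls that were lost, with log2 fold change and adjusted p, were in limma without trend and robust options those of ALKBH1 (0.20, 0.0573), ALKBH5 (0.16, 0.114) and ALKBH8 (0.21, 0.105), in DESeq2 those of ALKBH1 (0.20, 0.0765) and ALKBH2 (0.24, 0.0631), and with a replicate block that took the shared DETA/NO library as number 1 that of ALKBH2 (0.21, 0.0584). When each library was left out in turn, log2 fold changes ran from 0.17 to 0.23 for ALKBH1 and 0.21 to 0.27 for ALKBH2. They ran from 0.13 to 0.21 for ALKBH5 and 0.15 to 0.26 for ALKBH8. For ALKBH3, which never passed and turned direction without untreated library 3, they ran from -0.0037 to 0.029. Members called higher then numbered 2 to 4, against 4 with all libraries, 2 in DESeq2 and 1 in limma without trend and robust options. That last setting called 2262 genes higher and 2497 lower of all tested, and 12 list genes higher and 8 lower against 26 and 15. The cause was not tested. The block changed no other member's call. The labels name no shared day, so the main fit did not pair samples by replicate number. Deviations of same-numbered libraries from their group means correlated at 0.029, 0.0011 and 0.03 (numbers 1, 2 and 3). Deviations of 2 DETA/NO libraries mirror each other, and the shared library stands for numbers 1 and 2. These correlations therefore cannot show whether samples were paired. Other fits covered the 2 leading called genes of each list and direction and the genes head to head with a member. Of these 521 fits, 40 lost a call and 0 turned direction. Further genes named above are not in that count. Members with few reads are limited by counting, at about 7% per library.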
